A study of Mus musculus with 3 samples.

Results

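Tbx1, Tbx2 and Tbx3 were followed in droplet-based single-cell RNA libraries of the mouse otic vesicle, the closed epithelial cup from which the inner ear grows, at E10.5 of development. Each library came from a pool of vesicles. The members were the 3 genes of that name among the 32285 features counted. One library, labelled CD, came from embryos heterozygous for Sox9Y440X, an allele that truncates SOX9, a transcription factor of otic and cartilage cells, and 2 libraries came from wild-type embryos (WT replicates 1 and 2). No other allele or treatment is given for either group, and the labels do not tie the WT pools to different litters. The spread behind p-values of CD against WT is therefore that between libraries. For tests between cell groups of the same libraries, it is how far their difference varies from library to library. Both are pooled in part over genes and may be technical. With 1 CD library, a genotype difference and a difference between pools cannot be told apart.

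T-box proteins are transcription factors that bind DNA through a shared domain, the T-box. TBX1 is known in the otic vesicle as a regional selector of the posterior and lateral epithelium that holds back neurogenesis, and it also acts in the mesenchyme around the ear. TBX2 and TBX3 are closely related repressors that act in many epithelia and limit cell cycle inhibitors. Neurog1 encodes the proneural factor that starts the neuroblast lineage of the inner ear ganglion.

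Otic and mesenchyme cells were defined without any T-box gene, in cells that showed 1000 genes or more and no more than 10% mitochondrial counts. Otic cells had at least 1 count of Epcam and at least 2 counts of Fbxo2, Hmx2, Hmx3 and Pax2 together. They numbered 2778 in CD, 2537 in WT replicate 1 and 4083 in WT replicate 2. Mesenchyme cells had at least 2 counts of Prrx1 and Twist1 together and no Epcam, and numbered 1860, 1083 and 2508 in the same order. A count here is a unique molecular identifier (UMI), which stands for 1 captured transcript, and levels are in CPM, the UMIs of a gene scaled to a common total of the cell group. The libraries held 157373393 to 202584468 UMIs, and otic cells had a median of 18752 to 25431 UMIs. Any pair of libraries shared 14 to 27 cell barcodes. Of the otic cells that were clustered, 79.2% fell in clusters named otic epithelium from their markers, 15.5% in unnamed clusters and 3.04% in neuroblast clusters. Of the mesenchyme cells, 92.1% fell in mesenchyme clusters. Sox9 itself, the gene that carries the allele, stood at 688 CPM in CD against 409 and 338 CPM in the WT libraries in otic cells (log2 difference 0.83 with SE 0.15, edgeR adjusted p = 0.125). A count of 3' tags does not tell the Y440X transcript from the wild-type one.

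The reference table of RefSeq promoters (build GRCm38.p6) held windows for Tbx1 at its 2 annotated starts, both on the minus strand of chromosome 16. They are shown because Tbx1 was the only member with windows in that reference, and a 3' count cannot say which start was used. Each window runs from 250 bases before the start to 50 bases after it, and capitals mark matches to the proneural E-box CAGNTG, searched on both strands.
Tbx1, chr16:18590622-18590921: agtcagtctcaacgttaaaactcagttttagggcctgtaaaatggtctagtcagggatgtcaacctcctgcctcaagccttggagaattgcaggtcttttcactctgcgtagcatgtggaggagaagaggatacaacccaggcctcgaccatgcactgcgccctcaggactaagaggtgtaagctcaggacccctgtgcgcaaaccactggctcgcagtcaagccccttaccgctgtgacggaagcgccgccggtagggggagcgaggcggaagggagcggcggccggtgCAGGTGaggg
Tbx1, chr16:18588850-18589149: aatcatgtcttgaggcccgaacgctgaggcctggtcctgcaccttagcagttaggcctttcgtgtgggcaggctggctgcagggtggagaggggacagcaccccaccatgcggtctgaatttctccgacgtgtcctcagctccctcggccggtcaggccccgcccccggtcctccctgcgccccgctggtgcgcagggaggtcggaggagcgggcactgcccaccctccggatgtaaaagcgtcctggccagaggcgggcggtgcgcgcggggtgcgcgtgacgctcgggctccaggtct
The first window held 1 match to this E-box, starting at its base 291. The second window held 0 matches. Of all 32851 windows of 300 bases 51.4% held one, so a match in 1 of the 2 Tbx1 windows is near that share. Neither window held the T-box half-site GGTGTGA on either strand, which 3.98% of all windows held. Neither held the SOX core, spelled ACAAAG and searched on both strands, which 18.7% of all windows held. With 1 match in all, no matches overlapped.

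All 3 genes were expressed in otic cells of every library. In the order CD, WT replicate 1 and WT replicate 2, Tbx1 stood at 121, 128 and 124 CPM. Tbx2 stood at 141, 130 and 122 CPM, and Tbx3 at 63.7, 66.7 and 69.0 CPM. The values of each gene lay close together over the libraries. Before any correction for depth, 56.5% to 60.7% of otic cells had a UMI of Tbx1, 77.8% to 85.9% had one of Tbx2 and 45.5% to 52.7% had one of Tbx3. After each cell was thinned to 5000 UMIs, with shallower cells left out (44 in CD, 20 in WT replicate 1 and 111 in WT replicate 2), these shares were 35.0% to 37.6% for Tbx1, 43.7% to 47.2% for Tbx2 and 22.9% to 25.3% for Tbx3. For comparison, 4.94% to 10.3% of erythroid cells, at median depths of 37507 to 39927 UMIs, had a UMI of Tbx1 without thinning, 3.70% to 13.1% had one of Tbx2 and 2.88% to 8.16% had one of Tbx3. These blood cells should lack the genes, and their shares lie far below those of otic cells despite their greater depth.

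The mesenchyme held Tbx1 at a lower level and little of the other members. In the same order of libraries Tbx1 stood at 31.0, 37.8 and 20.5 CPM, and 17.4% to 29.5% of mesenchyme cells had a UMI of it without thinning. Tbx2 stood at 6.08, 5.10 and 9.07 CPM and Tbx3 at 4.10, 2.51 and 6.62 CPM. Erythroid cells held 1.32 to 4.48 CPM of Tbx2 and 1.32 to 3.74 CPM of Tbx3, so the mesenchyme values of these genes are near that background, while Tbx1 in erythroid cells stood at 1.52 to 4.48 CPM.

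**Figure D1:**
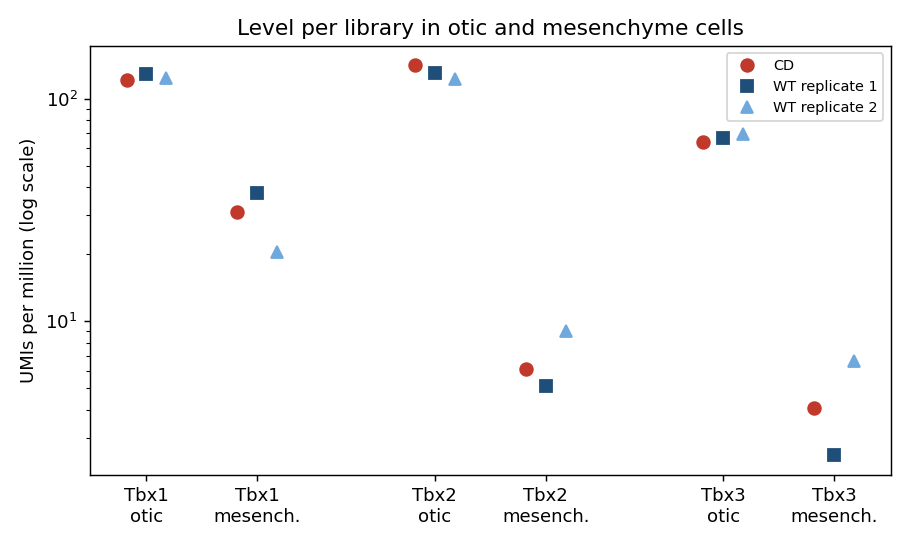
CPM of Tbx1, Tbx2 and Tbx3 (log scale) in otic and mesenchyme cells, with 1 point per library. In otic cells the libraries nearly coincide, and every mesenchyme point lies below every otic point of the same gene.

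The members were higher in otic cells than in mesenchyme cells in 3 of 3 libraries. The difference was 1.98 on the log2 scale for Tbx1 (SE 0.15, edgeR quasi-likelihood test with the library as a block, Benjamini-Hochberg adjusted p = 1.30e-04). It was 4.13 for Tbx2 (SE 0.17, edgeR adjusted p = 2.13e-05) and 3.76 for Tbx3 (SE 0.21, edgeR adjusted p = 4.95e-05). All 3 passed the threshold of 0.05, against a background of 32.9% of the 16248 genes tested that were higher in otic cells.

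Clusters of all cells, made without the member genes, gave the level of each gene by cell class. Tbx1 was highest in otic epithelium (143 ± 8.36 CPM, SD, n = 3 libraries), then in endothelium, the lining of blood vessels (53.0 to 62.0 CPM over the libraries), in the unnamed clusters (40.9 ± 7.20 CPM) and in mesenchyme (32.1 ± 9.74 CPM). It stood at 8.35 ± 2.22 CPM in neuroblasts and neurons and at 3.46 ± 1.68 CPM in erythroid cells. The ranges of the libraries did not overlap between otic epithelium, endothelium, mesenchyme and neuroblasts, while those of the unnamed clusters and mesenchyme did. In endothelium 53.1% to 59.1% of cells had a UMI of Tbx1.

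Tbx2 followed another order. It was highest in the unnamed clusters, led by Otol1, Fgf3 and Lars2 (157 ± 2.28 CPM), and in otic epithelium (135 ± 11.8 CPM). In neuroblasts and neurons it was lower (40.5 ± 4.90 CPM). The Lars2 cluster had 630 cells, 88.4% of them from WT replicate 2, at a median of 14.9% of the library median UMIs. It held 77.6 to 116 CPM of Tbx2 and 65.2 to 171 CPM of Tbx1. In endothelium Tbx2 stood at 3.62 ± 2.49 CPM, overlapping its erythroid level of 3.32 ± 1.74 CPM. Tbx3 stood at 79.6 ± 1.15 CPM in neuroblasts and neurons and at 68.8 ± 5.91 CPM in otic epithelium, and both classes were mixed. Among the neuroblast clusters it stood at 178 ± 23.9 CPM in that led by Hmx1 and at 78.9 ± 0.925, 39.2 ± 6.25 and 34.9 ± 7.21 CPM in those led by Bhlhe22, Pcp4 and Sst. Without the Hmx1 cluster, which held 377 of the 2930 cells of the class, Tbx3 was 62.4, 63.6 and 63.8 CPM in CD, WT replicate 1 and WT replicate 2. Otic epithelium held 62.2, 70.5 and 73.7 CPM, so the order of the classes for Tbx3 turned in both WT libraries in this alternative, chosen after seeing the data. Neuroblasts and neurons held less Tbx1 and less Tbx2 than otic epithelium in every library with and without that cluster, which is a description with no test.

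**Figure D2:**
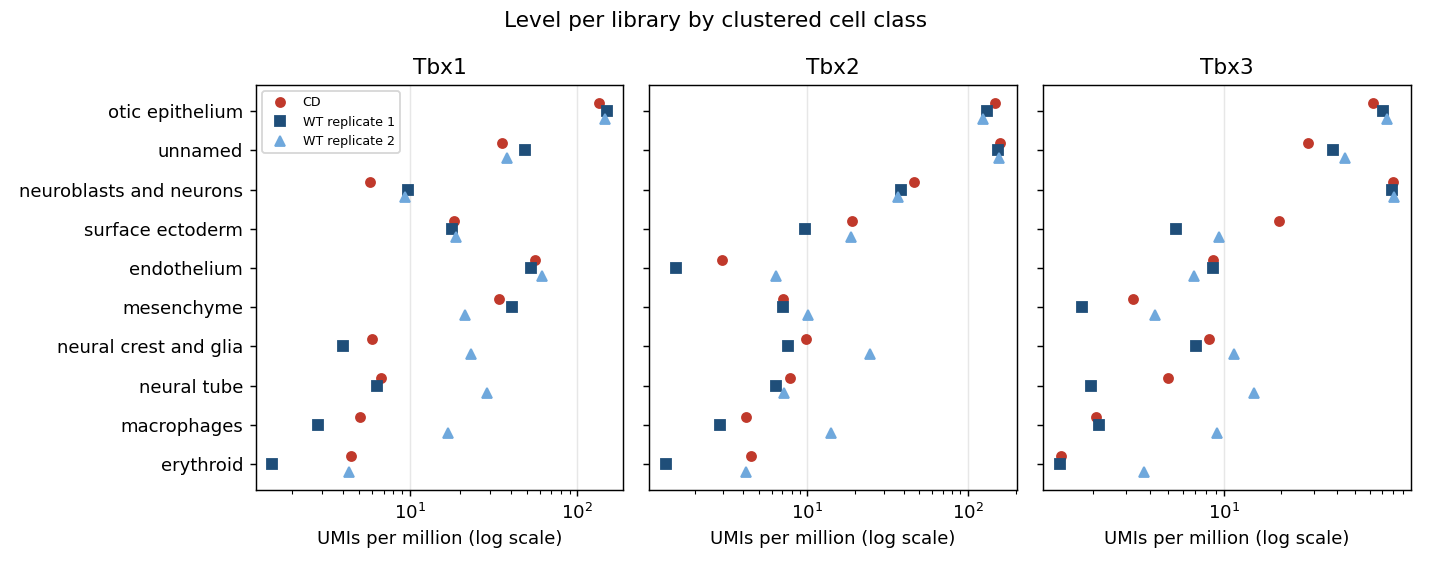
CPM of each gene (log scale) by cell class, with 1 point per library. The unnamed row pools clusters that met no naming rule. Tbx1 stands high in otic epithelium and endothelium, and Tbx3 in neuroblasts and otic epithelium.

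Otic cells clustered again, without the members, into 19 sub-clusters, called here by their leading gene. The sub-clusters led by Lyz2 and Ttr had markers of macrophages and mesenchyme among their leading genes. One more, with other cell types' markers and 1 cell in WT replicate 1, is not described. Tbx1 reached 325 ± 36.7 CPM (SD, n = 3 libraries) in the Lyz2 sub-cluster, where 92.8% to 98.5% of cells had a UMI of it. The macrophage class held 2.85 to 17.0 CPM of Tbx1. Only 17 of its cells met the otic definition, against 490 cells in the Lyz2 sub-cluster. Among the other sub-clusters Tbx1 was highest in that led by Fn1, Crim1 and Gata2 (248 ± 2.16 CPM). Next came the sub-clusters led by Otx2 and Gsc, transcription factors of the posterolateral domain (236 ± 41.4 and 226 ± 14.0 CPM). Its lowest levels were 8.44 ± 2.40 CPM in the Pyy sub-cluster, 8.65 ± 3.46 CPM in the Fgf3 sub-cluster and 13.2 ± 3.59 CPM in the Pou3f3 sub-cluster. The highest of these low values, 16.6 CPM, was below the lowest value of the Fn1 and Otx2 sub-clusters, 197 CPM.

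Tbx2 varied less. It was highest in the Fgf3 (201 ± 8.44 CPM), Gchfr (187 ± 13.0 CPM) and Pou3f3 (177 ± 5.85 CPM) sub-clusters, where Tbx1 was at most 20.9 CPM in any library. It was lowest, leaving out the sub-cluster that is not described, in those led by Pmp22 (44.7 ± 18.1 CPM) and Hapln1 (61.8 ± 25.1 CPM). These same sub-clusters, named dorsal from their markers, held the most Tbx3, at 217 ± 27.8 and 172 ± 16.4 CPM. Another dorsal sub-cluster, led by Pyy, held the least Tbx3, at 6.44 ± 3.53 CPM, with Tbx2 at 169 ± 26.0 CPM. The dorsal name thus covers sub-clusters at both ends of the Tbx3 range. The Fgf3 and Neurod1 sub-clusters, with 47.1 ± 4.06 and 88.2 ± 24.1 CPM of Neurog1, held Tbx3 at 87.1 to 123 and 66.0 to 88.3 CPM and Tbx1 at 4.66 to 10.9 and 25.1 to 37.0 CPM over the libraries.

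**Figure D3:**
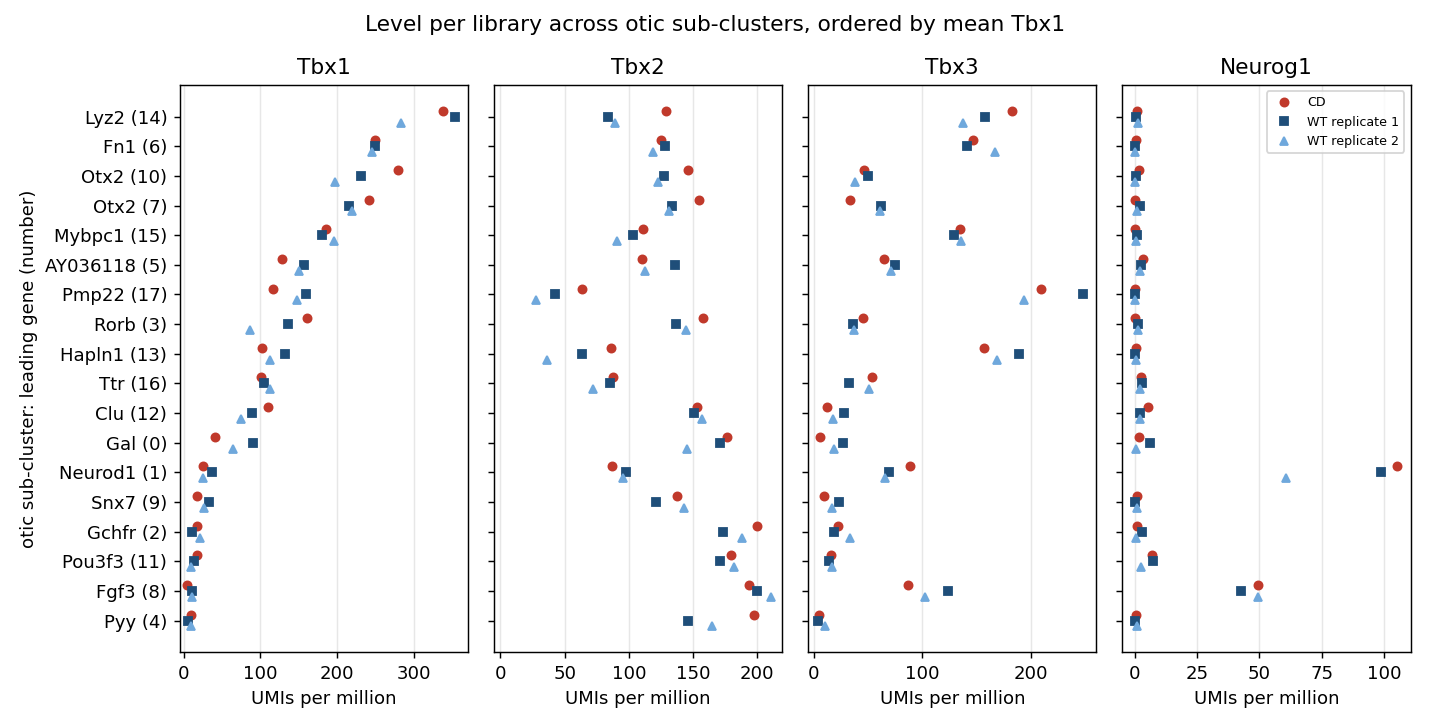
CPM of the members and Neurog1 in the otic sub-clusters other than the one with 1 cell in WT replicate 1, ordered by mean Tbx1, with 1 point per library. The sub-clusters with most Neurog1, Neurod1 and Fgf3, lie low for Tbx1, and the highest single Tbx2 point is one of Fgf3, with a Gchfr point above the other two.

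Across the 19 sub-clusters, which share libraries and depth, Tbx1 and Tbx3 had a Pearson r of 0.58, Tbx1 and Tbx2 of -0.20 and Tbx2 and Tbx3 of -0.29 (mean log2(CPM + 1) of the libraries). Without the 3 sub-clusters led by other cell types' genes, an alternative chosen after seeing the data, these were 0.53, -0.48 and -0.68 over 16 sub-clusters. Among 8198 genes, those with the pattern most like Tbx1 were Kcnq3 (r = 0.871), Mtch1 (0.866), Dclk1 (0.836), Prrx2 (0.835) and H19 (0.814). Over the 16 sub-clusters Mtch1 and Kcnq3 stayed among the top 5 of 7977 genes, with r of 0.945 and 0.877. For Tbx2 they were Baiap2l1 (0.943), Akr1b3, Ddx54, Rasef and Aldh18a1 (0.935), and none of these was in the top 5 over the 16. For Tbx3 the first was Tbx3os1 (0.919), a long noncoding RNA gene that overlaps the start of Tbx3 in the annotation. It was followed by Fut9 (0.908), Hmx2 (0.884), which is one of the genes that define the otic cells, Bcl11b (0.851) and Plxna4 (0.827). Over the 16, Tbx3os1 stayed first (0.928). Whether reads were counted by strand is not given in the sources used here, so Tbx3 and Tbx3os1 may share reads.

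No member passed the test between CD and WT. In otic cells the log2 difference of CD from WT was -0.12 for Tbx1 (95% interval -0.43 to 0.19), 0.11 for Tbx2 (-0.20 to 0.42) and -0.15 for Tbx3 (-0.47 to 0.17), each with an edgeR adjusted p of 1. CD lay below both WT libraries for Tbx1 and Tbx3 and above both for Tbx2. By order alone a lone library lies outside a pair more often than between it. The share of all genes with CD outside the WT pair was not counted, so these positions are only described. Of 17161 genes, 16 or 0.0932% passed the threshold, and the smallest p that a permutation of 1 library against 2 can give is 0.333. In mesenchyme cells the differences were 0.06 for Tbx1 (-0.63 to 0.74), -0.27 for Tbx2 (-1.07 to 0.52) and -0.22 for Tbx3 (-1.31 to 0.88), each with CD between the WT values, and 0.0384% of 15611 genes passed. Without WT replicate 1 the mesenchyme values were 0.54, -0.63 and -0.74, and without WT replicate 2 they were -0.32, 0.22 and 0.68. The difference of the CD effect between otic and mesenchyme cells was -0.24 for Tbx1 (-1.03 to 0.55), 0.39 for Tbx2 (-0.50 to 1.27) and 0.05 for Tbx3 (-1.18 to 1.29). That edgeR interaction called 0 of 16248 genes (0%), with 387 at an unadjusted p under 0.05 and 6 called by DESeq2.

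Within the 16 otic sub-clusters of at least 50 cells per library, CD stood above both WT libraries for Tbx2 in 9, below both in 3 and between them in 4. For Tbx3 it stood above both in 3, below both in 7 and between in 6, and for Tbx1 in 6, 5 and 5. The log2 ratio of CD to the mean of WT had a median of 0.15 for Tbx2, -0.18 for Tbx3 and 0.05 for Tbx1 over these sub-clusters. These counts describe 1 CD library, were not tested and have no share over all genes beside them. By order alone CD would lie outside the WT pair more often than between.

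None of the genes of the 6 lists of T-box, partner and marker genes described further on passed edgeR's test between CD and WT in otic cells. Beside Sox9, whose values are given above, those of smallest p were Otx2, a homeobox gene of the posterolateral epithelium, at -1.04 (edgeR adjusted p = 0.0764), Bmp4 at 0.76 (edgeR adjusted p = 0.162) and Cdkn1c at -0.68 (edgeR adjusted p = 0.177). With DESeq2 these 3 genes and Sox9 passed (adjusted p = 1.05e-04, 0.0206, 0.00223 and 0.00119 in that order). They also passed edgeR's test when no filter on low counts was used (adjusted p = 3.64e-05, 0.00157, 0.00971 and 3.23e-04).

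Otic cells with a UMI of Neurog1 held less Tbx1 than the other otic cells in 3 of 3 libraries. After thinning, 72 otic cells in CD, 72 in WT replicate 1 and 71 in WT replicate 2 had such a UMI. Before thinning, 175, 181 and 198 otic cells had one. The rest in this split, as in all splits by a UMI here, thus includes cells that lost their UMIs in thinning. Tbx1 stood at 38.9, 16.7 and 47.9 CPM in the thinned cells with Neurog1 and at 127, 137 and 129 CPM in the rest, with no overlap. The log2 difference was -1.92 (SE 0.19, edgeR quasi-likelihood test with the library as a block, adjusted p = 1.25e-19), against a background of 2.64% of 12405 genes that fell. The test borrows spread across genes far beyond its 2 residual degrees of freedom, so p-values of these splits rest mainly on the pooled spread. Tbx2 stood at 131, 125 and 166 CPM with and 140, 123 and 125 CPM without Neurog1 (log2 difference 0.12, SE 0.13, edgeR adjusted p = 0.759). Tbx3 stood at 69.4, 33.3 and 64.8 CPM with and 69.0, 74.8 and 71.3 CPM without (-0.35, SE 0.19, edgeR adjusted p = 0.371). For both genes the groups overlap. In otic cells with no UMI of Neurod1, the gene that follows Neurog1, Tbx1 was still lower with Neurog1 (-1.65, edgeR adjusted p = 7.07e-05). That fit had only 21, 23 and 21 cells with Neurog1 in CD, WT replicate 1 and WT replicate 2. In the main split, 9 neuroblast markers summed to 1228 to 1547 CPM with Neurog1 and 216 to 300 CPM without. The 11 otic markers summed to 1039 to 1175 CPM with and 1474 to 2373 CPM without. The part of these differences in the Tbx1 result was not tested. Of the proneural and neuroblast genes, 10 of 11 tested rose with Neurog1, against 2.93% of all genes, with Neurod1 at 3.92 and Dll1, a Notch ligand gene, at 4.52 (edgeR adjusted p = 2.11e-216 and 3.29e-48).

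Co-detection in single cells gives the same comparison as counts of cells. In CD, 10 thinned otic cells had both Tbx1 and Neurog1 against 25.2 expected if detection were independent, a ratio of 0.396. In WT replicate 1 there were 6 against 27.1 (0.222) and in WT replicate 2, 11 against 25.5 (0.432). Without thinning, the cells numbered 50, 56 and 61 and the ratios were 0.506, 0.510 and 0.519. Tbx2 and Neurog1 gave 1.18, 0.857 and 1.21 in thinned cells, and Tbx3 and Neurog1 gave 1.09, 0.443 and 1.00. In these thinned cells only Tbx1 was under its expected number in all 3 libraries. With doublets removed, Tbx3 was under it in all 3 as well, at 0.976, 0.464 and 0.944. Without thinning, Tbx3 and Neurog1 gave 1.03, 1.02 and 1.10.

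**Figure D4:**
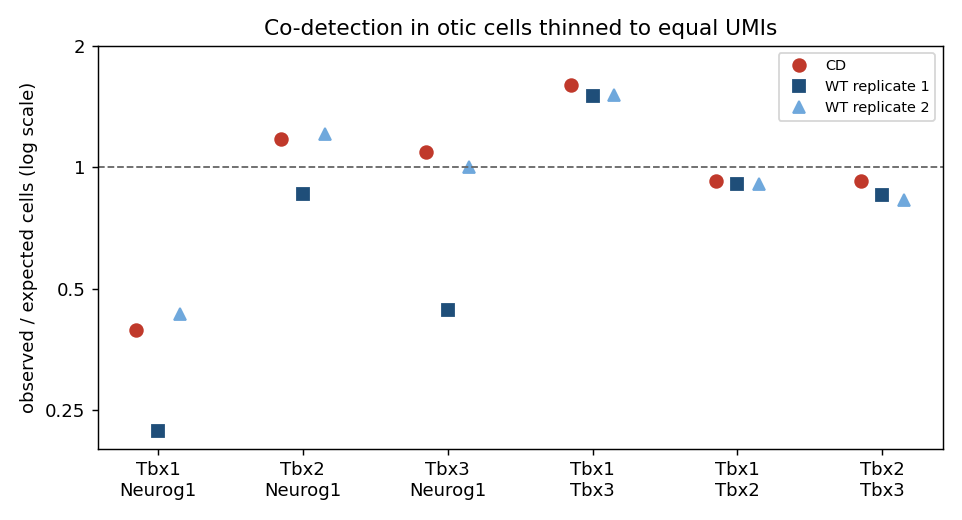
Ratio of observed to expected co-detected otic cells (log scale) for 6 gene pairs in cells thinned to 5000 UMIs, with 1 point per library. The dashed line marks the ratio expected if detection were independent. Tbx1 with Neurog1 lies at 0.222 to 0.432 and Tbx1 with Tbx3 at 1.503 to 1.60.

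Among the members, Tbx1 and Tbx3 went together and Tbx2 apart. Tbx1 and Tbx3 were found in the same thinned otic cells 351, 357 and 546 times in CD, WT replicate 1 and WT replicate 2, which is 1.60, 1.503 and 1.51 times the number under independence. Tbx1 with Tbx2 gave 0.927, 0.909 and 0.907, and Tbx2 with Tbx3 gave 0.924, 0.854 and 0.831. Without thinning these were 0.976, 0.987 and 0.987, and 0.982, 0.978 and 0.983. At 3000 UMIs they were 0.942, 0.935 and 1.00, and 0.818, 0.875 and 0.917. In cells with a UMI of Tbx1, Tbx3 stood at 109, 114 and 114 CPM, against 47.4, 49.5 and 47.1 CPM in cells without (log2 difference 1.24, edgeR adjusted p = 1.55e-14). That rise stands against 6.36% of 12673 genes that rose. Tbx2 stood at 124, 104 and 110 CPM against 148, 135 and 135 CPM (-0.30, edgeR adjusted p = 1.03e-05), against 8.06% that fell. Both directions held in 3 of 3 libraries, and the fall of Tbx2 did not pass in cells thinned to 3000 UMIs (-0.067, edgeR adjusted p = 0.612).

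The splits by the other members are the same relations read the other way. Cells without Tbx2 after thinning numbered 1444 in CD, 1416 in WT replicate 1 and 2218 in WT replicate 2. Without thinning only 406, 358 and 906 otic cells had no UMI of it. Most cells called here without Tbx2 had thus shown a UMI of it before thinning. In cells with Tbx3, Tbx1 rose (1.05, edgeR adjusted p = 2.87e-20, against 5.63% of 12614 genes that rose) and Tbx2 fell (-0.33, edgeR adjusted p = 3.25e-06, against 6.68% that fell). In cells with Tbx2, Tbx3 fell (-0.44, edgeR adjusted p = 3.07e-13) and Tbx1 fell (-0.17, edgeR adjusted p = 0.00261), against 1.87% of 12628 genes that fell and 1.54% that rose. The fall of Tbx1 in Tbx2 cells did not pass with DESeq2 (adjusted p = 1.00) or without WT replicate 1 (edgeR adjusted p = 0.229). Without the library as a block, none of the falls between Tbx2 and the other members passed, with edgeR adjusted p of 0.0844 to 1.00. In that fit 0 genes passed in the split by Tbx2, so each call printed for Tbx2 cells rests on the block.

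The genes around the T-box factors were read from these 6 lists. Of the proneural and neuroblast genes, 10 of 11 tested fell and 1 rose in cells with Tbx1, against 8.06% and 6.36% of all genes. The list median was -1.67 (log2) beside 0.01 over all genes. Neurod1, the next proneural factor, stood at 16.3, 18.2 and 26.4 CPM with Tbx1 and at 103, 97.8 and 86.4 CPM without (log2 difference -2.16, edgeR adjusted p = 1.07e-13). The Notch modifier Lfng fell by 1.69, Hes6 by 0.75 and Neurog1 by 2.29 on the log2 scale, with edgeR adjusted p of 2.69e-11, 3.49e-10 and 7.01e-08. With Tbx2, 3 of these 11 genes fell and 1 rose, against 1.87% and 1.54% of all genes, and with Tbx3, 2 fell and 3 rose, against 6.68% and 5.63%. In Tbx3 cells Isl1, a factor of differentiating neurons and sensory epithelium, rose by 0.72 (edgeR adjusted p = 1.24e-08), and in Tbx2 cells Neurod1 fell (-0.66, edgeR adjusted p = 2.65e-28) while Lfng rose (0.42, edgeR adjusted p = 5.48e-04). The rise of Isl1 did not pass with DESeq2 (adjusted p = 0.0614), and that of Lfng did not pass with DESeq2 or without WT replicate 2 (edgeR adjusted p = 0.138). In cells thinned to 3000 UMIs Lfng with Tbx2 was 0.14 (edgeR adjusted p = 0.860).

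Of 9 tested posterolateral and TBX1-linked genes, 4 rose and 3 fell in cells with Tbx1 (median -0.03), against 6.36% and 8.06% of all genes. The homeobox genes Otx1 (1.59) and Gsc (1.71) and the ligand gene Bmp4 (1.40) rose, while Gbx2, a homeobox gene of the dorsal side, fell (-2.23), with edgeR adjusted p from 9.86e-14 to 1.05e-09 for the genes that rose and 8.28e-14 for Gbx2. Gbx2 stood at 13.8, 8.03 and 8.14 CPM with Tbx1 and at 61.4, 49.0 and 33.9 CPM without. In cells with Tbx3, Gbx2 also fell (-1.78, edgeR adjusted p = 2.94e-15) and Bmp4 rose (0.89, edgeR adjusted p = 9.08e-12), but Otx2 fell (-1.24, edgeR adjusted p = 4.38e-09). In cells with Tbx2, 4 rose and 0 fell, against 1.54% and 1.87% of all genes. Among those that rose were Gbx2 (0.37, edgeR adjusted p = 1.41e-04) and Eya1 (0.32, edgeR adjusted p = 1.07e-08). With DESeq2 neither of these rises passed (adjusted p = 0.915 and 0.0522), nor did the fall of Otx2 with Tbx3 (adjusted p = 0.0604), and Gbx2 in Tbx2 cells did not pass without CD (edgeR adjusted p = 0.158). In cells thinned to 3000 UMIs the values with Tbx2 were 0.17 for Gbx2 and 0.19 for Eya1 (edgeR adjusted p = 0.737 and 0.176). In cells with Neurog1, 3 rose and 5 fell, against 2.93% and 2.64% of all genes, with Fgf8 at 3.40 and Otx2 at -2.50.

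Of 12 tested genes of the hedgehog, forkhead and retinoic acid list, 8 rose and 0 fell in cells with Tbx1 (median 0.49). Over all 12673 genes 6.36% rose and 8.06% fell. The order in which these genes and Tbx1 act was not tested. Aldh1a2, which makes retinoic acid, rose by 1.63 and Cyp26a1 and Cyp26c1, which break it down, by 1.36 and 1.73 (edgeR adjusted p = 1.76e-09, 9.60e-08 and 3.75e-07). The hedgehog effector Gli2 rose by 0.62 (edgeR adjusted p = 7.24e-04). It did not pass with DESeq2 (adjusted p = 0.112), without the block (edgeR adjusted p = 0.0515) or in cells thinned to 3000 UMIs, where it was 0.34 (edgeR adjusted p = 0.240). Aldh1a2 separated the members. It rose in cells with Tbx3 (1.83, edgeR adjusted p = 2.06e-10) and fell in cells with Tbx2 (-1.56, edgeR adjusted p = 2.65e-28), where it stood at 7.75, 4.18 and 6.84 CPM against 17.5, 18.1 and 20.3 CPM.

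Of 13 tested TBX2- and TBX3-linked genes, 2 rose and 3 fell in cells with Tbx2 (median 0.01), against 1.54% and 1.87% of all genes. In cells with Tbx3, 5 rose and 2 fell (median 0.12), against 5.63% and 6.68% of all genes. The cell cycle inhibitor gene Cdkn1a fell in cells with Tbx3, from 116, 119 and 123 CPM to 37.7, 40.8 and 49.5 CPM (log2 difference -1.47, edgeR adjusted p = 1.23e-19). It rose in cells with Tbx2 (0.24, edgeR adjusted p = 1.26e-05) and fell in cells with Tbx1 (-1.11, edgeR adjusted p = 9.93e-13). The rise in Tbx2 cells did not pass with DESeq2 (adjusted p = 0.804), without WT replicate 2 (edgeR adjusted p = 0.0607) or in cells thinned to 3000 UMIs (edgeR adjusted p = 0.0531). The BMP response genes Id1, Id2 and Id3 rose in cells with Tbx3 (0.53, 0.41 and 0.79) and in cells with Tbx1 (0.51, 0.53 and 0.72).

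**Figure D5:**
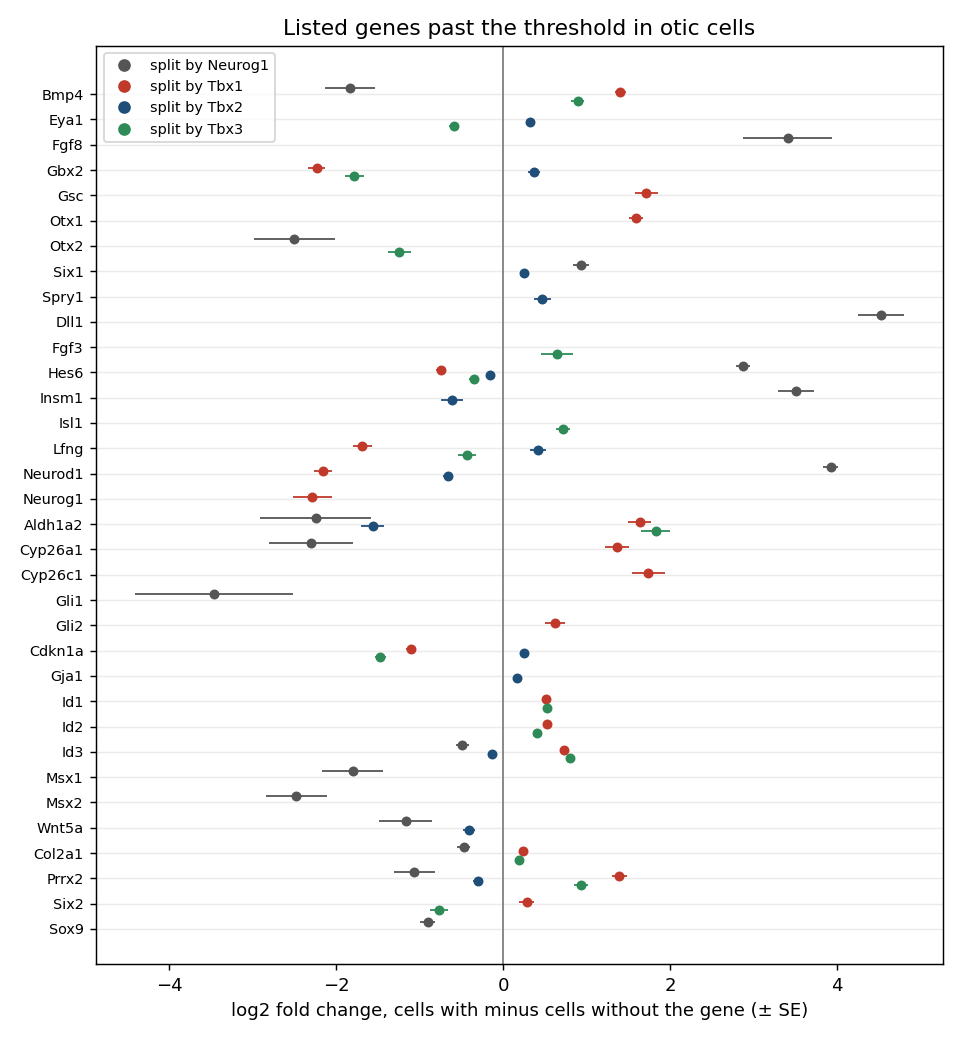
Log2 fold change (± SE) of the named list genes that passed the threshold, in otic cells with against without a UMI of Neurog1, Tbx1, Tbx2 or Tbx3. Points are drawn only for the splits in which the naming rule took the gene. Aldh1a2 and Prrx2 lie right of 0 for Tbx1 and Tbx3 and left of it for Tbx2.

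Of 7 tested periotic mesenchyme genes, 3 rose and 0 fell in cells with Tbx1, against 6.36% and 8.06% of all genes. Prrx2 was at 1.39 there (edgeR adjusted p = 1.19e-11). Prrx2 rose in cells with Tbx3 (0.93, edgeR adjusted p = 4.22e-11) and fell in cells with Tbx2 (-0.30, edgeR adjusted p = 4.34e-05; DESeq2 adjusted p = 0.548). Prrx2 is also 1 of the 9 mesenchyme markers, so their sum is not separate from its changes. The summed level of these 9 markers was higher in cells with Tbx1 in 3 of 3 libraries, at 185, 120 and 186 CPM with and 108, 69.0 and 167 CPM without, and 1 of the 9 was at 0 in cells with Tbx1. It was higher with Tbx3 in 2 of 3 libraries, at 180, 122 and 154 CPM with and 122, 77.1 and 181 CPM without. With Tbx2 it was lower in 3 of 3, at 113, 70.5 and 144 CPM with and 155, 102 and 198 CPM without. In mesenchyme cells the same sum was 2005 to 2233 CPM. RNA of red cells, read from 4 haemoglobin genes, was lower in cells with a member than in those without in every library of the 3 splits. Their sum was 578 to 2243 CPM with Tbx1 and 2609 to 4674 CPM without. It was 1532 to 2058 CPM with Tbx2 against 2089 to 5398 CPM, and 1149 to 1354 CPM with Tbx3 against 2079 to 4584 CPM. In the Tbx1 split 7 macrophage markers summed to 5.47 to 9.94 CPM with and 4.33 to 26.4 CPM without. The part of these RNAs in the splits was not tested.

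Of the other T-box genes, 14 had a row and 6 passed the filter on low counts in otic cells, none of them past the threshold between CD and WT. Mga, a large T-box protein of the MAX network, stood at 83.8, 76.8 and 71.7 CPM in otic cells and 73.2, 68.7 and 61.7 CPM in mesenchyme cells. Tbx18 and Tbx15, T-box genes of mesenchyme, stood at 9.58 to 28.1 and 11.1 to 21.2 CPM in mesenchyme cells and at 1.43 to 2.08 and 0.26 to 2.27 CPM in otic cells. The remaining T-box genes were under 0.31 CPM in every library of both cell groups.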

How the data were processed

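Chromium 3' chemistry 3.1 was used, per the labels' protocols, and reads were processed with Cell Ranger 6.0 on build mm39, per the submitters' processing notes (6.0.0 per the file headers). The deposited matrices hold UMI counts per gene and barcode, not normalised by the authors. Counts were summed per library and cell group and tested in R 4.3.3 with edgeR 4.0.16 (TMM, filterByExpr, quasi-likelihood, Benjamini-Hochberg over all genes), after a test on simulated data. Printed CPM are plain, without TMM. CD against WT has 1 residual degree of freedom, from the WT pair, and CD is assumed to vary like WT. Splits by a UMI used cells thinned to 5000 UMIs and the library as a block. Clustering used scanpy 1.11.5 (2000 variable genes, 30 components, 15 neighbours, resolution 1), after Scrublet doublets were removed. In the tested cell groups doublets stayed in, and removing them was an alternative. Naming thresholds (score 0.4, at least 3 raised markers) were chosen once the clusters were known, so shares by class rest on rebuilt names. Named list genes are up to 4 past the threshold by smallest p, or the 2 of smallest p. The members, lists and rules were chosen with earlier results of these data known. Alternatives covered cell filters, gates, doublets, scaling, gene filter, DESeq2 1.42.0, thinning, left-out libraries and the block. Promoter coordinates are of GRCm38.p6 and were matched by symbol (1 of 3 members). Neighbouring genes come from RefSeq of the same build.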

Additional observations from a re-analysis of the deposited data

How the results depend on the processing

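No paired analysis was possible because CD and WT share only replicate number 1. The fall of Tbx1 with Neurog1, the rise of Tbx3 with Tbx1 and of Tbx1 with Tbx3, and the higher otic level of all 3 members kept direction and threshold in every alternative that was run. Tbx1 ranged from -2.65 to -1.57 with Neurog1. Other member results changed as follows, and the cause was not tested. Tbx2 with Tbx1 was -0.067 at 3000 UMIs and -0.30 without the block (edgeR adjusted p = 0.612 and 0.0844). Tbx1 with Tbx2 was -0.11 at 3000 UMIs, -0.18 with DESeq2 and -0.18 without the block, and -0.21 to -0.14 with a library left out. Without the block Tbx3 with Tbx2 was -0.44 and Tbx2 with Tbx3 -0.33. Tbx3 with Neurog1 turned to 0.089 unthinned and 0.015 at 3000 UMIs, and Tbx2 with Neurog1 was -0.036 to 0.22 with a library left out. Mga with Neurog1 was -0.065 at 3000 UMIs, -0.40 in cells with no Neurod1 UMI, and -0.054 to 0.21 with a library left out. Mga with Tbx2 was -0.015 in cells with no Neurod1 UMI and -0.058 to 0.073 with a library left out. In cells with no Neurod1 UMI, Insm1 with Neurog1 was -7.00 (edgeR adjusted p = 0.938) and Hes6 with Tbx2 0.055. The CD effect in otic against mesenchyme cells for Tbx3 was -0.062 with purer gates and -0.099 with DESeq2. Leaving out a WT library, which allows no test, gave -0.64 to 0.16 for Tbx1, -0.17 to 0.77 for Tbx2 and -0.81 to 0.56 for Tbx3 there, -0.74 to 0.68 for Tbx3 in mesenchyme and -0.19 to -0.12 for Tbx3 in otic cells. Of 67 list gene results that passed, 38 did not pass under at least 1 alternative, and 9 of 22 that did not pass did so under one. Without the block the calls lost included Bmp4, Otx2, Isl1 and Id2 with Tbx3 (edgeR adjusted p = 0.1265, 0.229, 0.1435 and 0.105) and Otx2 with Neurog1 (0.106, and 0.0747 at 3000 UMIs). Tbx3 in neuroblasts and neurons minus otic epithelium was 10.8 CPM, and -5.54 CPM without the Hmx1 cluster.

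Genes called for CD in otic cells numbered 8 (looser filter), 4 (doublets removed), 56 (stricter gates), 45 (purer gates), 4 (cells of at least 5000 UMIs), 155 (no gene filter) and 60 (DESeq2), against 16. In mesenchyme they were 0 with doublets removed and 54 with no gene filter, against 6, and the interaction gave 6 with DESeq2. For the splits by Neurog1, Tbx1, Tbx2 and Tbx3 (690, 1828, 431 and 1552), unthinned cells gave 3571, 4848, 2295 and 4557, 3000 UMIs gave 373, 1098, 115 and 877, and DESeq2 gave 333, 573, 57 and 505. Dropping the block gave 358, 450, 0 and 277, and leaving out a library gave 321 to 355, 1179 to 1600, 205 to 349 and 775 to 1227. Cells with no Neurod1 UMI gave 78 for Neurog1 and 287 for Tbx2. The median co-detection ratio of Tbx1 and Neurog1 was 0.510 unthinned, 0.271 at 3000 UMIs and 0.515 in cells with no Neurod1 UMI, and that of Tbx2 and Neurog1 was 1.40 there. Depth limits the Neurog1 split, with 71 or 72 cells a library.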
